A study of Mus musculus with 12 samples.

Results

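The genes described are Gas1 and its partners in Hedgehog signalling: the co-receptors Gas1, Cdon and Boc, the receptor Ptch1, the signal transducer Smo, the inhibitors Hhip and Sufu, and the transcription factors Gli1, Gli2 and Gli3. They were chosen by gene symbol, with earlier results for these libraries known and Gas1 heading the set, so the values of Gas1 are given as a description with no test. Of these 10 genes, 9 had a row in the table of 17576 genes, and the expression of Hhip was not analysed here. Of the 9, 7 were among the 11360 genes that passed the filter on level, those that reached 1 in 3 or more libraries. Gli1 and Gli2 stayed below 1 in all 12 libraries.

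RNA was sequenced from C18-4 cells, a mouse line established from type A spermatogonia, in 4 groups of 3 libraries, all made from total RNA and all labelled as strain IRC mouse. The group 8276OV had received virus for overexpression of the long noncoding RNA lncRNA8276, the group 8276KD virus for its inhibition, and the groups 5NC and 3NC carry names that the labels do not spell out. The design text places 5NC with the overexpression and 3NC with the knockdown, and both were taken as control viruses on that basis. The sources used here do not give the kind of virus, its promoter or the time after transfection. LncRNA8276 itself was not analysed here, so its level did not check the labels. No label tells whether libraries of 1 group are separate cultures, and the p-values therefore reflect the spread between libraries only, possibly a technical one.

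Levels are FPKM, sequenced fragments relative to the length of the transcript and the size of the library, a unit read from the values themselves since no label names it. Column sums lay between 533099 and 561940, and 10929 to 11165 genes reached 1 in each library. Sequencing depth per library was not recovered from the values, so no counting interval is given. Markers of the labelled cell type were mostly low: of 15 germ cell markers with a row, 12 stayed below 1 in all libraries, including Gfra1, Ret, Zbtb16, Ddx4 and Dazl, while Etv5 and Uchl1 reached 1 in all 12. Of 9 Sertoli cell markers with a row, Gata4 and Wt1 reached 1 in all libraries and 5, including Amh and Sox9, in none. In bulk libraries, fewer cells of a type and less RNA per cell cannot be told apart.

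Hedgehog ligands bind the membrane protein Ptch1, which otherwise holds Smo inactive. Gas1, Cdon and Boc are cell surface proteins that bind the ligands and present them to Ptch1. Released Smo acts at the primary cilium, where it ends the restraint of the Gli factors by Sufu and by proteolytic processing. Gli1 and Ptch1 are themselves transcribed in response to the signal, and Ptch1 and Hhip feed back to limit it. In the testis, Desert hedgehog from Sertoli cells signals to Leydig and peritubular cells. Gas1 was first described as a gene of growth-arrested fibroblasts, and its protein is related to the receptors of the GDNF family.

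The promoter windows of Gas1 and Gli2 are shown because these genes had large differences in level between groups, and that of Ptch1 because it is a textbook target of the Gli factors. Each window holds the 250 bases before a RefSeq start on GRCm38.p6, 5′ to 3′ on the minus strand. The Gas1 window borders the gene span given below. The windows of Gli2 and Ptch1 lie inside the spans of their genes, so the start used is not the outermost end of the gene. Capitals mark matches to a GC box (GGGCGG) or to the letters CCAAT on either strand. The window of Gas1 is chr13:60177536-60177785 (58.8% GC), that of Gli2 chr1:119053620-119053869 (67.2% GC) and that of Ptch1 chr13:63565736-63565985 (78.4% GC).
Gas1: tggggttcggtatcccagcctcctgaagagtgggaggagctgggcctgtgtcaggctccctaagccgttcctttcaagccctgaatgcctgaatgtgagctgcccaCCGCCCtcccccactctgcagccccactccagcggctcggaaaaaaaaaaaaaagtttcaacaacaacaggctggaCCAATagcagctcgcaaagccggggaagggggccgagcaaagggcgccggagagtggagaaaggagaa
Gli2: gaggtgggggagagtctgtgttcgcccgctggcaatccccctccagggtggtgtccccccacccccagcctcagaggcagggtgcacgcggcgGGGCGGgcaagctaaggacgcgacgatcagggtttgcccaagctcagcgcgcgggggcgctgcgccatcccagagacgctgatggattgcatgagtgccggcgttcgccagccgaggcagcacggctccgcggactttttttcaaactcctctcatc
Ptch1: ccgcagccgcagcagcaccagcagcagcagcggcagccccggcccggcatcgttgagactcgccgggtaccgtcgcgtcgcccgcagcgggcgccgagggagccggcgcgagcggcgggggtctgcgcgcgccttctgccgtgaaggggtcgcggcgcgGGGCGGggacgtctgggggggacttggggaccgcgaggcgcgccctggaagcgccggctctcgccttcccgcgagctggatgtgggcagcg

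A RefSeq window was found for 8 of the 10 genes. Those of Gli2, Ptch1 and Cdon lie inside the spans of their genes, and that of Hhip overlaps its gene in part. The Gli recognition letters GACCACCCA were found on neither strand in any of the 8 windows, and in 0.225% of 32851 mouse promoter windows of the same length. A GC box was present in 6 of the 8, against 32.7% of all windows. CCAAT was present in 2 of the 8, Gas1 and Sufu, against 33.8% of all, and TATAAA in 0 of the 8, against 12.4%. None of these motifs contains another on either strand. A match describes the letters only, and a missing match says only that these letters are not in the window.

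Gas1 (gene 14451, chromosome 13, 60174405 to 60177535 in GRCm38) differed between all 4 groups, from about 2 FPKM with 3NC to about 14 with 5NC. Its level was 2.22, 1.96 and 2.10 FPKM in the 3NC libraries, 3.02, 3.42 and 3.48 in 8276KD, 5.40, 6.81 and 5.78 in 8276OV, and 14.75, 13.14 and 14.05 in 5NC. The groups ranked 5NC, 8276OV, 8276KD and 3NC, and no neighbours in that order overlapped. The 2 control groups were the extremes of this order, and both manipulated groups lay between them.

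The mean level of Gas1 was 13.98 ± 0.807 FPKM in 5NC (SD, n = 3) and 5.997 ± 0.730 in 8276OV (n = 3), 2.33-fold lower, a log2 fold change of -1.10 (SE 0.0798). In 8276KD it was 3.31 ± 0.2501, 1.58-fold above the 2.09 ± 0.130 of 3NC (log2 fold change 0.48, same SE). Between the control groups the mean was 6.68-fold higher in 5NC than in 3NC (log2 fold change 2.28). Log2 fold changes here and below are differences of group means of log2(FPKM + 1), which understate changes of low genes. Values given as n-fold are ratios of mean FPKM and so can be larger.

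The direction of the Gas1 difference turned with the control. Against 3NC, 8276OV was 2.86-fold higher rather than lower (log2 fold change 1.17), and against 5NC, 8276KD was 4.23-fold lower rather than higher (-1.80). With both control groups pooled, the values were 0.036 for 8276OV and -0.66 for 8276KD.

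The summed level of 6 fibroblast markers took the same order as Gas1. It ranged from 309 to 319 FPKM in 3NC, 385 to 455 in 8276KD, 462 to 529 in 8276OV and 608 to 615 in 5NC. Col1a1, Col3a1 and Dcn reached 1 in all libraries and make up nearly all of the sum. Pdgfra ranged from 0.55 to 1.40 FPKM, Col1a2 and Thy1 reached 1 in none, and no marker of the list was at 0 throughout. No other marker list kept this order without overlap. The germ cell sum was 124 to 146 FPKM in 8276KD, 82.6 to 91.3 in 3NC, 93.7 to 97.6 in 5NC and 76.4 to 87.85 in 8276OV. Most of it was Uchl1, which alone ranged from 73 to 139 FPKM. The macrophage sum was 4.13 to 5.67 in 3NC, 2.63 to 3.54 in 8276KD, 2.05 to 2.34 in 5NC and 1.53 to 2.04 in 8276OV. Nearly all of it was Cd68 (1.52 to 5.61), while Ptprc and Csf1r did not exceed 0.03 and 0.11. These 2 sums thus describe mainly single genes. The part of the fibroblast marker order in the Gas1 values was not tested.

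**Figure D1:**
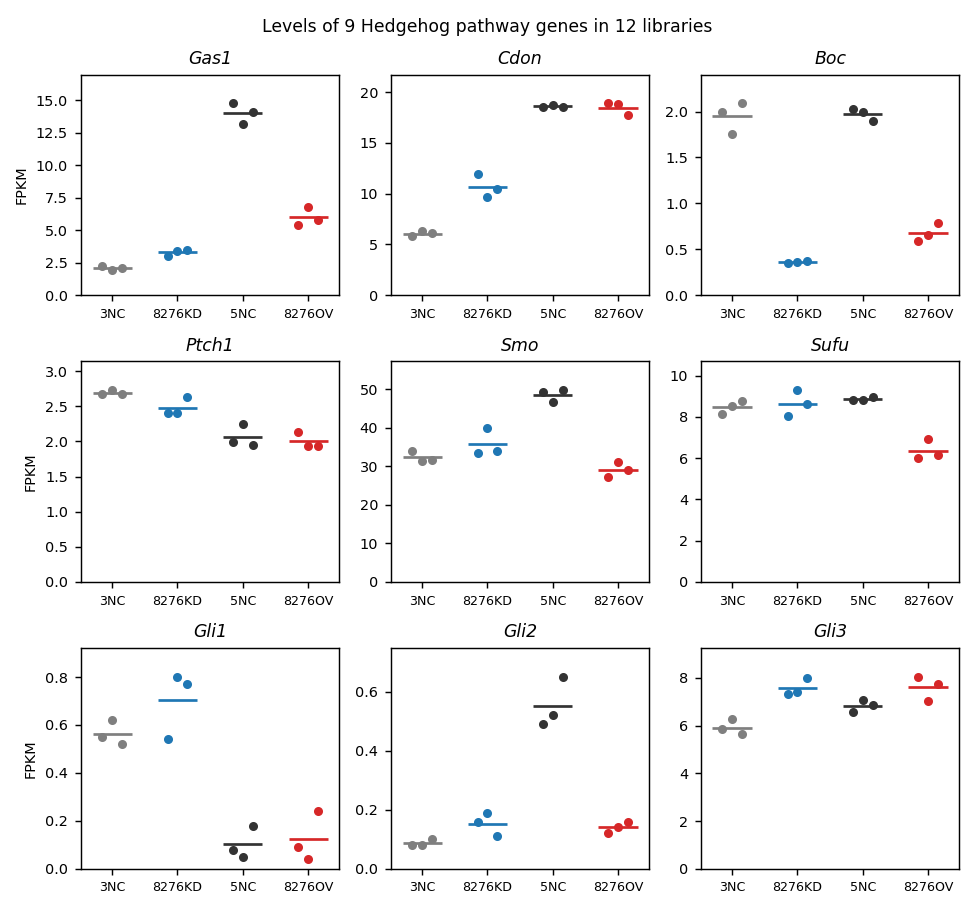
Levels in FPKM (vertical axis, from 0, a separate scale for each gene) of the 9 genes with a row, by group (horizontal axis). Points are single libraries and lines are group means of 3. Gas1 spans 1.96 to 14.75 FPKM with the control groups at the ends, Boc is low in both manipulated groups, and Gli1 and Gli2 stay below 1.

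The other co-receptors did not share a pattern. Cdon (gene 57810, chromosome 9, 35421528 to 35507652), an immunoglobulin superfamily protein, was at 5.81, 6.27 and 6.10 FPKM in 3NC, 11.92, 9.69 and 10.45 in 8276KD, 18.51, 18.79 and 18.59 in 5NC, and 18.91, 18.84 and 17.72 in 8276OV. The 5NC and 8276OV libraries overlapped, and the other neighbours in this order did not. Cdon rose under knockdown by 0.72 on the log2 scale (SE 0.0653, limma adjusted p = 2.41e-06). It was 3.07-fold higher in 5NC than in 3NC (log2 fold change 1.48, adjusted p = 6.72e-10). Between 8276OV and 5NC the difference was -0.011 (SE 0.0653, adjusted p = 0.887). As for Gas1, the knockdown difference changed sign against the other control, to -0.75.

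Boc (gene 117606, chromosome 16, 44485045 to 44558870), the paralog of Cdon, was the co-receptor that was lower in both manipulated groups against either control. Its level was 2, 1.76 and 2.09 FPKM in 3NC and 2.03, 2 and 1.90 in 5NC, against 0.35, 0.36 and 0.37 in 8276KD and 0.59, 0.65 and 0.79 in 8276OV. All 6 control libraries lay above all 6 others, and the control groups overlapped each other. Boc fell under knockdown by 1.12 on the log2 scale (5.42-fold lower in means, adjusted p = 1.34e-06) and under overexpression by 0.83 (2.92-fold lower, adjusted p = 3.96e-06). Against the other control the values were -1.13 for 8276KD and -0.82 for 8276OV. Between the control groups the difference was 0.014 (adjusted p = 0.933). These p-values come from the fit of all 17576 genes without a filter on level, because Boc reached 1 in its 6 control libraries only and so passed the filter through the groups where it was high. On a scale of log2(FPKM + 0.1) its fold changes were -2.15 under knockdown and -1.43 under overexpression.

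Ptch1 (gene 19206, chromosome 13, 63508328 to 63573460), the receptor and itself a target of the pathway, varied least in level between the 4 groups after Gli3. It was at 2.68, 2.73 and 2.68 FPKM in 3NC, 2.40, 2.40 and 2.63 in 8276KD, 1.99, 2.25 and 1.95 in 5NC, and 2.14, 1.94 and 1.93 in 8276OV. The 5NC and 8276OV libraries overlapped, and all 3NC libraries lay above all others. Ptch1 was lower in 5NC than in 3NC by 0.27 on the log2 scale (log2 fold change -0.27, SE 0.0663, adjusted p = 0.00326). The manipulations against their own controls gave -0.028 for 8276OV (adjusted p = 0.713) and -0.089 for 8276KD (adjusted p = 0.307). Against the other control they were called, at -0.30 for 8276OV (adjusted p = 0.00101) and 0.18 for 8276KD (adjusted p = 0.0308).

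Smo (gene 319757, chromosome 6, 29735497 to 29761366), the transducer that Ptch1 holds inactive, had the highest level of the 9 genes. Its level was 33.99, 31.31 and 31.67 FPKM in 3NC, 33.53, 39.88 and 33.97 in 8276KD, 49.27, 46.64 and 49.72 in 5NC, and 27.17, 31.15 and 29.02 in 8276OV. The 5NC libraries lay above all others and the 8276OV libraries below all others, while 8276KD and 3NC overlapped. Smo fell under overexpression by 0.72 on the log2 scale (1.67-fold lower, SE 0.0686, adjusted p = 1.12e-06) and was higher in 5NC than in 3NC (log2 fold change 0.57, adjusted p = 9.98e-06). Against 3NC, the 8276OV difference was -0.15 (adjusted p = 0.0655). Under knockdown it was 0.14 (adjusted p = 0.124).

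Sufu (gene 24069, chromosome 19, 46396896 to 46488804), the cytoplasmic inhibitor of the Gli factors, was lowest in 8276OV. It was at 8.14, 8.50 and 8.78 FPKM in 3NC, 8.02, 9.29 and 8.62 in 8276KD, 8.82, 8.83 and 8.97 in 5NC, and 5.99, 6.93 and 6.14 in 8276OV. The 8276OV libraries lay below all 9 others, and 8276KD overlapped both control groups, which did not overlap each other. Sufu fell under overexpression by 0.43 on the log2 scale (SE 0.0651, adjusted p = 5.00e-05). The difference was 0.024 under knockdown (adjusted p = 0.798) and 0.060 between the controls (adjusted p = 0.451).

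Gli3 (gene 14634, chromosome 13, 15463723 to 15730026), the Gli factor whose processed form represses targets, was the most abundant Gli factor in every library. Its level was 5.84, 6.30 and 5.63 FPKM in 3NC, 6.57, 7.06 and 6.86 in 5NC, 7.33, 7.40 and 8.02 in 8276KD, and 8.04, 7.05 and 7.75 in 8276OV. The groups 8276KD and 8276OV overlapped each other, 8276OV replicate 2 lay within the range of 5NC, and every 3NC library was below every other. Gli3 rose under knockdown by 0.31 on the log2 scale (SE 0.0640, adjusted p = 0.00190), and against 5NC the difference was 0.13 (adjusted p = 0.0958). It was 0.18 higher in 5NC than in 3NC (adjusted p = 0.0294), a call lost without 3NC replicate 1 or 3 or 5NC replicate 2 or 3 (adjusted p = 0.0768, 0.110, 0.0962 and 0.0705). Under overexpression the difference was 0.14 (adjusted p = 0.0684), and without 8276OV replicate 2 it was 0.18 (adjusted p = 0.0233).

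The activator genes Gli1 and Gli2 were both low and ran in opposite directions between the control groups. Gli1 (gene 14632, chromosome 10, 127329882 to 127341579), the factor induced by the signal, was at 0.55, 0.62 and 0.52 FPKM in 3NC and 0.54, 0.80 and 0.77 in 8276KD, against 0.08, 0.05 and 0.18 in 5NC and 0.09, 0.04 and 0.24 in 8276OV. The 3NC and 8276KD libraries lay above all 5NC and 8276OV libraries, and each manipulated group overlapped its own control. The highest group mean was 6.81 times the lowest. When genes of all levels were tested, Gli1 was lower in 5NC than in 3NC (log2 fold change -0.50, SE 0.0778, adjusted p = 5.05e-04), while 8276OV differed from 5NC by 0.024 (adjusted p = 0.884) and 8276KD from 3NC by 0.12 (adjusted p = 0.323).

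Gli2 (gene 14633, chromosome 1, 118834061 to 119054405), the main activator at the start of the response, was at 0.08, 0.08 and 0.10 FPKM in 3NC, 0.16, 0.19 and 0.11 in 8276KD, 0.12, 0.14 and 0.16 in 8276OV, and 0.49, 0.52 and 0.65 in 5NC. The 5NC libraries stood above all 9 others, and 8276KD and 8276OV overlapped. When genes of all levels were tested, Gli2 was 0.51 higher in 5NC than in 3NC (SE 0.0390, adjusted p = 3.56e-06), fell by 0.45 under overexpression (adjusted p = 1.22e-05) and differed by 0.085 under knockdown (adjusted p = 0.151). Differences at such levels rest on small values given to 2 decimals.

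A gene was called when its adjusted p in the limma fit over all genes was under 0.05. Counts are given over the 5 genes that reached 1 in all libraries, Cdon, Ptch1, Smo, Sufu and Gli3, leaving out Gas1 as untested and Boc for its passage of the filter. Under overexpression 2 of the 5 were called, Smo and Sufu, both lower, against 74.4% of all tested genes called (30.3% higher, 44.1% lower). With quantile normalization 1 of the 5, Gli3, was called higher and 2 lower, and over all genes 4428 were higher and 3997 lower in place of 3447 and 5005. Under knockdown 2 of the 5 were called, Cdon and Gli3, both higher, against 39.4% of all genes (20% higher, 19.5% lower). Between the control groups 4 of the 5 were called, with Cdon, Smo and Gli3 higher in 5NC and Ptch1 lower, against 56.5% of all genes (30.6% higher, 25.9% lower). The median log2 fold change of the 5 genes was -0.028, 0.14 and 0.18 in these comparisons, against -0.088, -0.0048 and 0.022 over all tested genes. These counts describe genes chosen with results known, and the overexpression and control comparisons share the 5NC libraries, as the knockdown and control comparisons share 3NC.

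The fold changes under overexpression ran with the GC content of the transcripts over all genes (Spearman's rho = -0.788 over 11248 genes, a description across genes), falling by 0.53 on the log2 scale per 10 points of GC content. The slope was -0.079 per 10 points under knockdown and 0.051 between the controls. The longest transcripts of Gas1, Smo, Boc and Sufu hold 58.4%, 57.8%, 55.9% and 55.8% GC, and those of Cdon, Gli3 and Ptch1 48.7%, 48.4% and 47.8%. The genes that were lower under overexpression were thus the GC-rich ones among the 7.

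With a GC trend removed from each library, the log2 fold changes under overexpression became -0.49 for Gas1, -0.35 for Boc, -0.14 for Smo (adjusted p = 0.00562) and 0.044 for Sufu (adjusted p = 0.454). The fall of Sufu was not called after this correction, and Gas1, Boc and Smo kept their direction with smaller differences.

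Under knockdown the corrected values were 0.57 for Gas1, 0.72 for Cdon, 0.31 for Gli3 and -1.05 for Boc, and Smo passed the threshold (0.22, adjusted p = 1.88e-04). Between the controls the corrected value of Gas1 was 2.20 and that of Cdon 1.45. After the correction 1, 3 and 4 of the 5 genes were called under overexpression, under knockdown and between the controls, against 54.7%, 48.3% and 64.2% of all genes with a GC value.

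**Figure D2:**
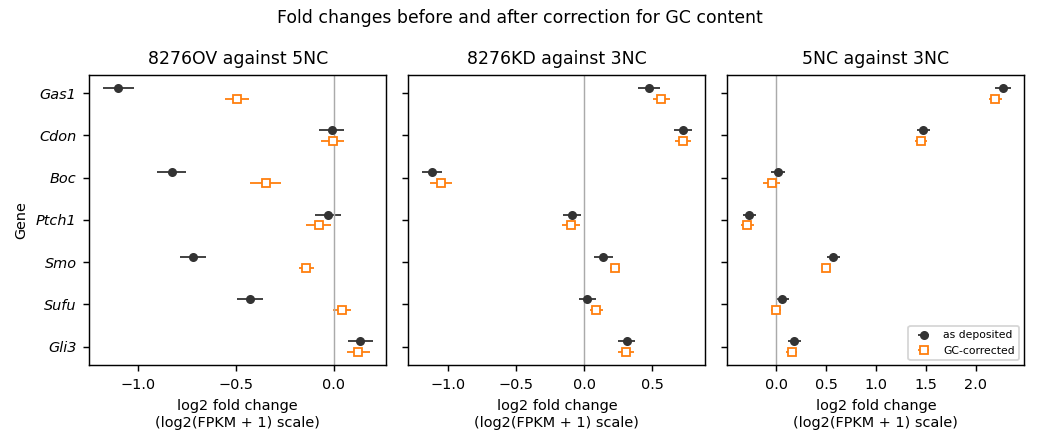
Log2 fold change of the 7 genes that passed the filter (horizontal axis, log2(FPKM + 1) scale) in the 3 comparisons, as deposited (filled circles) and after GC correction (open squares), with bars of 1 limma standard error. Under overexpression the values of Gas1, Boc, Smo and Sufu move toward 0 after the correction (Gas1 from -1.10 to -0.49), while in the other panels the values move little.

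**Figure D3:**
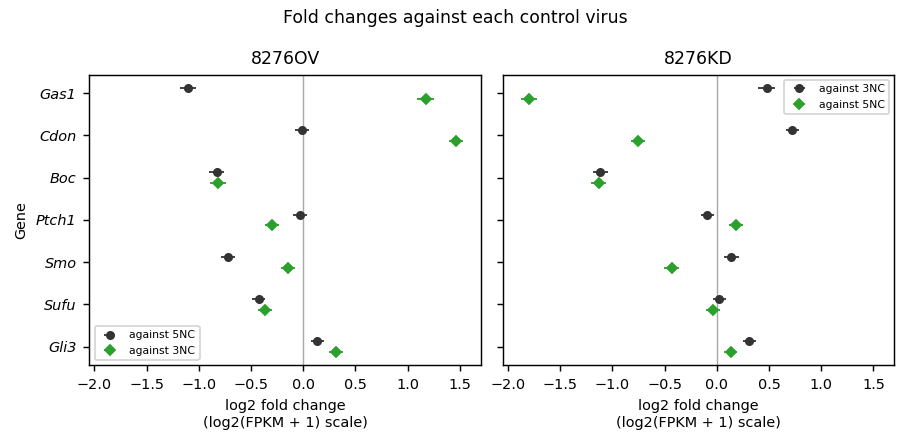
Log2 fold change of the 7 genes that passed the filter (horizontal axis, log2(FPKM + 1) scale) for 8276OV and 8276KD against each control group, with bars of 1 limma standard error. Gas1 lies on opposite sides of 0 against the 2 controls in both panels, and Boc stays near -0.8 in 8276OV and near -1.1 in 8276KD whichever control is used.

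A wider set of 90 genes of the pathway, in lists of ligands and binding proteins, signal transduction, the primary cilium and known targets, showed where the 10 genes stand. Of these, 89 had a row, 13 stayed below 1 in all libraries and 76 were tested. Under overexpression 14 were higher and 41 lower (median log2 fold change -0.21), under knockdown 11 higher and 20 lower (-0.057), and between the controls 37 higher in 5NC and 12 lower (0.15). The shares called were 72.4%, 40.8% and 64.5%, beside 74.4%, 39.4% and 56.5% of all tested genes. After GC correction the overexpression count was 9 higher and 24 lower (43.4% called, against 54.7% of all genes), and the median was -0.046. With quantile normalization it was 25 higher and 33 lower. Without 3NC replicate 3 the knockdown count was 7 higher and 11 lower, while calls over all genes fell from 4477 to 3428.

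Ligands were scarce. Shh and Ihh did not exceed 0.06 FPKM in any library, and Dhh ranged from 0.14 to 0.41. Of 14 listed ligands and ligand-handling genes, 9 stayed below 1 in all libraries and 5 were tested. Of these 5, 1 was higher and 3 lower under overexpression, 1 higher and 2 lower under knockdown, and 3 higher in 5NC than in 3NC with 0 lower. The shares called, 80%, 60% and 60% of so few genes, stand beside 74.4%, 39.4% and 56.5% of all genes.

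Disp1, which releases lipid-modified ligand from cells, was at 12 ± 0.249 FPKM in 3NC, 17.9 ± 0.405 in 5NC, 10.1 ± 0.684 in 8276KD and 12.8 ± 1.03 in 8276OV (SD, n = 3 each). It fell by 0.45 on the log2 scale under overexpression (adjusted p = 2.32e-05) and by 0.23 under knockdown (adjusted p = 0.0111). After GC correction the overexpression difference of Disp1 was not called (log2 fold change 0.016, adjusted p = 0.767). Against 3NC, the 8276OV difference of Disp1 was 0.087 (adjusted p = 0.225). Lrp2, an endocytic receptor that binds Hedgehog ligand, rose under knockdown from 7.37 ± 0.172 to 12.2 ± 1.29 (log2 fold change 0.65, adjusted p = 7.84e-06) and was 0.51 higher in 5NC than in 3NC (adjusted p = 2.59e-05). Against 5NC, the knockdown difference of Lrp2 was 0.15 (adjusted p = 0.0796). Hhat, the acyltransferase of the ligands, fell under overexpression from 1.68 ± 0.136 to 1.18 ± 0.115 (log2 fold change -0.30, adjusted p = 0.00405, and -0.39 after GC correction), a call lost with quantile normalization (-0.13, adjusted p = 0.143).

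Of 30 transduction genes, 29 were tested. Under overexpression 5 were higher and 18 lower, under knockdown 5 higher and 9 lower, and between the controls 13 higher in 5NC and 4 lower. The shares called were 79.3%, 48.3% and 58.6%, against the all-gene shares of 74.4%, 39.4% and 56.5%. Evc, a ciliary partner of Smo, was at 4.05, 3.28 and 3.46 FPKM in 3NC, 4.64, 4.96 and 4.60 in 8276KD, 4.69, 5.63 and 4.96 in 8276OV, and 9.24, 8.91 and 10.11 in 5NC. The 5NC libraries stood apart above the other 3 groups. Evc was 1.18 higher in 5NC than in 3NC (adjusted p = 3.51e-08) and fell by 0.78 under overexpression (adjusted p = 1.84e-06, and by 0.24 after GC correction). Against 3NC, 8276OV was 0.41 higher (adjusted p = 3.61e-04).

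Grk2, a kinase that phosphorylates active Smo, fell under overexpression from 49.9 ± 1.75 to 27.7 ± 2.61 FPKM (log2 fold change -0.83, adjusted p = 1.19e-06, and -0.31 after GC correction). Gnas, which encodes the stimulatory G protein that raises cyclic AMP and so restrains the pathway, fell by 0.57 from 865.6 ± 34.2 to 583.5 ± 33.8 FPKM (adjusted p = 5.09e-07). After GC correction the Gnas difference was not called (log2 fold change 0.011, adjusted p = 0.860). Under knockdown the called genes with the smallest p were Csnk1a1 (log2 fold change -0.28, adjusted p = 5.67e-04), a kinase of the Gli factors and of Smo, Arrb2 (-0.34) and Ulk3 (-0.37, adjusted p = 0.00440). The sign of each of these 3 was the same after GC correction, at -0.32, -0.28 and -0.32. Against 5NC the Ulk3 difference was -0.063 (adjusted p = 0.561).

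Of 27 cilium genes, 26 were tested. Under overexpression 6 were higher and 10 lower, under knockdown 2 higher and 5 lower, and between the controls 11 higher in 5NC and 4 lower. That is 61.5%, 26.9% and 57.7% called, against 74.4%, 39.4% and 56.5% of all genes. Ift172, a subunit of the intraflagellar transport machinery, was at 5.56 ± 0.201 FPKM in 3NC, 4.16 ± 0.188 in 8276KD, 7.05 ± 0.0808 in 5NC and 4.96 ± 0.234 in 8276OV. It fell by 0.35 on the log2 scale under knockdown (adjusted p = 3.62e-04) and by 0.43 under overexpression (adjusted p = 1.46e-05), the latter not called after GC correction (-0.12, adjusted p = 0.0755). Ofd1, a protein of the ciliary base, rose under knockdown from 4.19 ± 0.145 to 6.30 ± 0.671 (log2 fold change 0.49, adjusted p = 1.10e-04) and stood at 7.47 ± 0.156 in 5NC. B9d1, of the transition zone at the ciliary base, was 1.05 higher in 5NC than in 3NC (adjusted p = 5.93e-06). The knockdown differences of Ofd1 and B9d1 were reversed against 5NC, at -0.22 and -0.59.

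Of 20 further genes known as targets of the pathway in some tissue, 16 were tested. Under overexpression 2 were higher and 10 lower (75% called, against 74.4% of all genes), and after GC correction 1 higher and 4 lower (31.3%, against 54.7%). Under knockdown 3 were higher and 4 lower, and between the controls 10 higher in 5NC and 4 lower, which is 43.8% and 87.5% called, against 39.4% and 56.5% of all genes. Ccnd1, the cyclin of early G1, was at 49.5 ± 0.651 FPKM in 3NC, 39.8 ± 1.87 in 8276KD, 28.7 ± 0.734 in 5NC and 27.2 ± 0.375 in 8276OV. It was 0.77 lower in 5NC than in 3NC (log2 fold change -0.77, adjusted p = 8.92e-09) and fell by 0.31 under knockdown (adjusted p = 1.28e-04). Against 5NC, 8276KD was 0.46 higher.

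Bmp4, a secreted growth factor, was at 9.30, 8.38 and 8.98 FPKM in 3NC, 8.99, 10.73 and 8.74 in 8276KD, 11.79, 11.76 and 11.36 in 8276OV, and 19.67, 22.16 and 18.30 in 5NC. The 5NC libraries lay above all others, and 3NC and 8276KD overlapped. Bmp4 was 1.09 higher in 5NC than in 3NC (adjusted p = 8.61e-08) and fell by 0.73 under overexpression (adjusted p = 2.99e-06, and by 0.48 after GC correction), while against 3NC 8276OV was 0.35 higher (adjusted p = 0.00110). Nr2f2, a nuclear receptor, was at 5.18 ± 0.218 FPKM in 3NC and 9.68 ± 0.337 in 5NC (log2 fold change 0.79, adjusted p = 2.74e-07). Mycn, a proliferation factor, rose under knockdown from 0.923 ± 0.102 to 2.04 ± 0.278 (log2 fold change 0.66, adjusted p = 5.59e-05), and against 5NC its difference was -0.11 (adjusted p = 0.285). Jag2, a Notch ligand, fell under knockdown by 0.58 (adjusted p = 6.09e-05) and under overexpression by 0.77 (adjusted p = 1.49e-06), the latter not called after GC correction (-0.020, adjusted p = 0.775). Against 5NC the knockdown difference of Jag2 was -0.015 (adjusted p = 0.885).

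**Figure D4:**
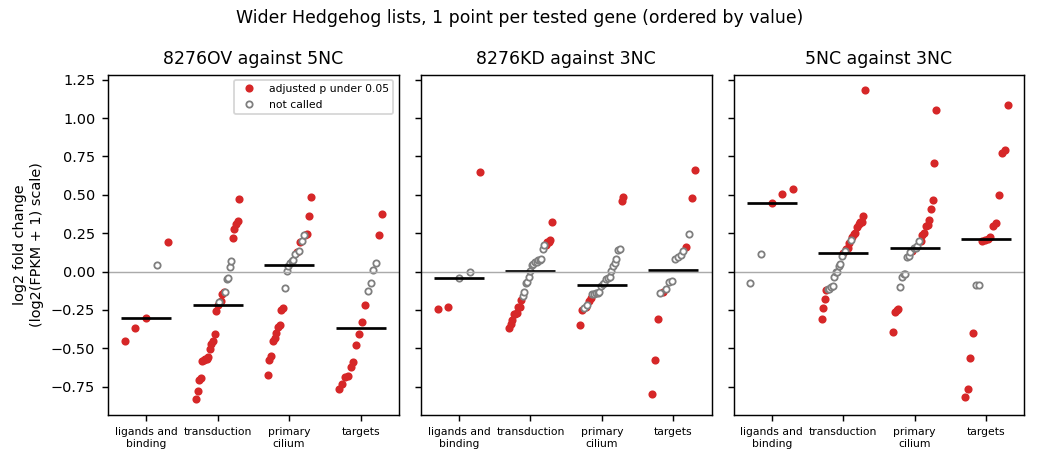
Log2 fold change (vertical axis, log2(FPKM + 1) scale) of the 76 tested genes of the wider lists, 1 point per gene ordered by value within its list, in the 3 comparisons. Filled points are called, open points are not, and lines are list medians. Of called genes, 41 of 55 are below 0 under overexpression (5005 of 8452 over all genes; 33 below and 25 above with quantile normalization) and 37 of 49 above 0 between the controls (3477 of 6414 over all genes).

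Gas1 carries its name from growth arrest, so the other genes named for it were read beside it. Of 5 such genes 4 had a row and 3 were tested. Gas6, the ligand of the Axl family of receptor kinases, was at 29.80, 28.58 and 30.81 FPKM in 3NC, 32.78, 40.41 and 35.61 in 8276KD, 40.43, 47.20 and 41.96 in 8276OV, and 81.64, 77.47 and 79.48 in 5NC. It ranked the groups as Gas1 did, with 5NC apart from the rest and each group mean in the same order. No groups overlapped, although the highest 8276KD library (40.41) and the lowest 8276OV library (40.43) nearly met.

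Gas6 was 1.39 higher in 5NC than in 3NC (adjusted p = 2.66e-09) and fell by 0.87 under overexpression (adjusted p = 4.12e-07, and by 0.35 after GC correction). It rose by 0.27 under knockdown (adjusted p = 0.00858). As for Gas1, both manipulations changed sign against the other control, to 0.52 for 8276OV and -1.12 for 8276KD. Gas2, a cytoskeletal protein, was lower in 5NC than in 3NC (1.76 ± 0.237 FPKM against 2.61 ± 0.0173, log2 fold change -0.39, adjusted p = 0.00468). So was Pmp22, a myelin protein once named Gas3 (58.8 ± 1.13 in 5NC against 69.1 ± 1.54 in 3NC, log2 fold change -0.23, adjusted p = 7.64e-04). Gas7 did not exceed 0.01 FPKM.

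The GDNF receptors, to which Gas1 is related, were low throughout. Of 11 ligands and receptors of that family 8 had a row, and 6 of these stayed below 1 in all libraries. Gfra1 did not exceed 0.17 FPKM and Ret 0.01, and the ligand Gdnf ranged from 0.17 to 0.90. Nrtn, another ligand of the family, was at 1.05 ± 0.398 FPKM in 5NC and 0.203 ± 0.0961 in 8276OV. Its log2 fold change under overexpression was -0.76 (adjusted p = 0.00280 in the fit without a filter on level), and 0.22 after GC correction. Under knockdown the Nrtn difference was -0.10 (adjusted p = 0.745 in the same fit). Ncam1, an alternative GDNF receptor and general adhesion molecule, was at 11.0 ± 0.307 FPKM in 3NC, 14.8 ± 0.182 in 5NC, 7.45 ± 0.427 in 8276KD and 10.8 ± 0.392 in 8276OV. Ncam1 fell under knockdown by 0.50 (adjusted p = 1.06e-05) and under overexpression by 0.42 (adjusted p = 1.17e-05). Against 3NC the 8276OV difference was -0.019 (adjusted p = 0.761).

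The genes whose levels ran most like those of Gas1 were found by Pearson's r of log2(FPKM + 1) over the 12 libraries, among 11359 other tested genes. The values are a description, since the 12 points fall in 4 groups that share their virus. The highest were Flcn, the folliculin gene (0.994), Amotl2, an angiomotin family member (0.992), Timp2, an inhibitor of metalloproteinases (0.992), App, the amyloid precursor gene (0.991), and Lmo4, a LIM domain gene (0.991). Flcn was at 11.5 ± 0.164 FPKM in 3NC, 13.4 ± 0.451 in 8276KD, 16.4 ± 0.938 in 8276OV and 22.3 ± 1.08 in 5NC, the order of Gas1 over a narrower range. The lowest were Cd44, a hyaluronan receptor (-0.994), Kif23, a mitotic kinesin (-0.991), and Hars, a histidyl tRNA synthetase gene (-0.985).

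Of the pathway genes, Evc came first (0.965, rank 63 of 11359), before Bmp4 (0.955, rank 89) and Nr2f2 (0.915, rank 275). Among the Hedgehog genes proper Cdon was at 0.861 (rank 511), Smo at 0.687, Gli3 at 0.258, Boc at 0.249 and Sufu at 0.013. Ptch1 was at -0.811 (rank 10851). The core genes were thus spread over nearly the whole range of likeness to Gas1.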

How the data were processed

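Total RNA of 12 C18-4 libraries was sequenced. The authors deposited a table of 17576 genes with a value per library at 2 decimals, read as FPKM from the values, since no label or header names the unit. The submitters' processing notes name the build mm10. The aligner, the counting tool and the treatment of strand were not given in the sources used here. For 27 genes the RefSeq symbol of the identifier replaced the table's symbol, and 17458 genes had a RefSeq entry. Low values did not resolve to whole reads, so depth is unknown.

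A gene was kept when 3 or more libraries reached 1 (11360 genes). Log2(FPKM + 1) was fitted with limma 3.58.1 in R 4.3.3, a mean per group over all 12 libraries (eBayes with trend and robust), with two-sided p-values adjusted by Benjamini-Hochberg over all tested genes and a threshold of 0.05. Levels carry SDs, and log2 fold changes carry limma standard errors. An exact permutation test of 3 against 3 cannot go below 0.1. For the GC correction, each library's deviations from the gene means were fitted by a natural spline (5 degrees of freedom) against GC content, taken from a gene's longest GENCODE transcript (known for 99% of tested genes), and the fit was removed. The fit was tested on simulated data.

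The members and lists were chosen with earlier results of these data known. Named were all members, up to 3 called genes per wider list and comparison with the smallest adjusted p, groups that do not overlap and an average of 1 or more over the groups compared (part of these are printed), the tested growth arrest-specific and GDNF family genes, and, by Pearson's r with Gas1, the 5 highest and 3 lowest genes and the 3 highest of the pathway genes. Fibroblast, Sertoli and germ cell markers are given in the report. Of Leydig, peritubular myoid, endothelial and macrophage markers, 0 of 5, 4 of 5, 0 of 4 and 1 of 3 with a row reached 1 in all libraries. Alternatives were another pseudocount, filter, scaling, GC correction, replicate block, choice of libraries, eBayes options, control, and leaving out each library.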

Additional observations from a re-analysis of the deposited data

How the results depend on the processing

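The sign of Gas1 turned with the control: its log2 fold change under overexpression was 1.17 against 3NC and 0.036 against both controls, and under knockdown -1.80 against 5NC and -0.66 against both. With a pseudocount of 0.1 the Gas1 values were -1.21 under overexpression, 0.63 under knockdown and 2.68 between the controls. Under overexpression, Gas1 was at -0.93 with quantile normalization and -0.49 with GC correction, with or without the replicate block. Leaving out each library gave Gas1 values of -1.18 to -1.04, 0.45 to 0.53 and 2.24 to 2.32 in the 3 comparisons.

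GC correction left 33 wider genes called under overexpression in place of 55, with or without the replicate block. Over all genes, calls went from 8452 of 11360 to 6158 of 11248 with the correction (6063 with the block). Leaving out single libraries gave 48 to 56 wider genes called under overexpression, 18 to 30 under knockdown (31 with all) and 37 to 45 between the controls (49 with all). Over all 11360 genes, calls then numbered 7781 to 8496, 3428 to 5008 and 5592 to 5703, in place of 8452, 4477 and 6414. Of the 5 Hedgehog genes counted in the report, 2 to 3, 2 to 2 and 3 to 4 were called. The group left with 2 libraries shared the spread of the joint fit.

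Sign changes are listed where the gene was called in 1 or both of the settings compared. They cover the Hedgehog genes other than Gas1 and the growth arrest-specific and GDNF family genes. Wider genes are covered in the comparison in which the rule named them, and other wider genes also changed sign. Sign changes without a call, such as that of Sufu under knockdown (0.024, and -0.036 against 5NC), are left out. With GC correction the overexpression difference changed sign for Sufu (0.044), Disp1 (0.016), Scube3 (0.13), Gnas (0.011), Ift27 (0.022) and Nrtn (0.22). Against 3NC in place of 5NC it changed sign for Cdon (1.46, and 0.73 against both controls), Disp1 (0.087), Evc (0.41), Bmp4 (0.35), Gas6 (0.52), Gas2 (-0.34) and Pmp22 (-0.058). Against 5NC in place of 3NC the knockdown difference changed sign for Ptch1 (0.18), Smo (-0.43), Cdon (-0.75, and -0.015 against both), Ofd1 (-0.22), B9d1 (-0.59, and -0.067 against both), Mycn (-0.11), Ccnd1 (0.46, and 0.074 against both), Gas2 (0.31) and Gas6 (-1.12, and -0.42 against both). Beyond the change of reference group, the cause was not tested.

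Quantile normalization moved the all-gene median under overexpression from -0.088 to 0.029, and calls from 3447 higher and 5005 lower to 4428 higher and 3997 lower. Relative to that median, Gas1 was at -1.01 before and -0.96 after, Boc at -0.74 and -0.70, Smo at -0.63 and -0.68, Sufu at -0.34 and -0.29, and Gli3 at 0.22 and 0.27. Gli3 was then called under overexpression (0.30, adjusted p = 0.00108) and lost its call between the controls (0.15, adjusted p = 0.0754). For same-numbered libraries, r of the deviations from the group means lay between -0.183 and 0.0883. Deviations within a group of 3 are tied to each other, so these values cannot tell whether replicate numbers pair the libraries. Between the controls each library correlated best with its own number. In the overexpression comparison each correlated least with its own number (r = -0.151, -0.183 and -0.0276). Under knockdown the same-numbered values were all negative (-0.00483, -0.181 and -0.153). With the replicate block, all-gene calls were 8407, 4434 and 6380 in place of 8452, 4477 and 6414, with 2, 2 and 4 of the 5 Hedgehog genes, as without it. Since depth is unknown, the precision of the low values of Gli1, Gli2 and Boc could not be stated.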
